A study of Homo sapiens with 10 samples.

Results

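APEX1, the gene of the DNA repair enzyme APE1, was knocked out in A549, a human lung adenocarcinoma cell line, and messenger RNA was sequenced in knockout (KO) and unedited (WT) cells. The comparison holds 6 of the 10 libraries of the study, 3 WT and 3 KO, and takes in every gene of the deposited count table. Of 28281 gene symbols, 15806 had enough counts to be tested. The other 4 libraries come from another lung adenocarcinoma line, H1944, with 2 WT and 2 APE1 knockout libraries, and were used here only to test whether a change differed between the lines. Both A549 groups were grown in the same medium, the labels give no treatment, and genotype is the only label that parts them. How the knockout was made, where the edit lies, whether a KO library is 1 clone, and whether libraries are separate cultures, are not given in the sources used here. The p-values therefore speak only of the spread among these 6 libraries, which can be technical. The KO columns of the table are named 65, 16 and 66 with no genotype. They were taken as KO because the remaining A549 columns are named WT, and they are called KO 65, KO 16 and KO 66 below.

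APE1 cuts the DNA backbone at sites that have lost a base, a central step of base excision repair, and it also keeps transcription factors such as AP-1 and NF-kB in a reduced, DNA-binding form. Guanine-rich DNA can fold into a structure of stacked guanines, the G-quadruplex, and the title of the study links APE1 to that form and to genes of the urea cycle. The urea cycle turns ammonia into urea, and its first enzyme is CPS1, which lung adenocarcinoma cells of some lines make although the cycle belongs to the liver. A549 cells carry a deletion of CDKN2A.

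The labelled line was checked first. CDKN2A had 0 counts in each of the 6 libraries, and the epithelial keratin KRT8 stood at 5256 to 13502 CPM (counts scaled to the size of the library, not to gene length, so levels are compared between libraries and not between genes). Some markers of other cell types were at or near 0: CD3E of T cells and DCN of fibroblasts had 0 counts in the 6 libraries, and PTPRC of leukocytes had 1 count in KO 65 and 0 in the others. Other markers of these lists were expressed, such as COL1A1 with 105 to 312 counts and CD68 with 601 to 970. Fibroblast markers summed to 10.6 to 15.2 CPM in WT and 15.4 to 26.2 CPM in KO, and leukocyte markers to 38.8 to 50.4 CPM over the 6 libraries. The 8 endothelial markers summed to 0.617 to 0.728 CPM in WT and 0.933 to 2.49 CPM in KO. All 3 KO libraries thus lay above the WT libraries in these endothelial markers, highest in KO 65, where CDH5 had 31 counts against 6 in WT 1; their part in other results was not tested. The list of genes deleted in A549 held CDKN2A and MTAP, which are often lost together. MTAP had 138 to 211 counts, so unlike CDKN2A it did not read as lost, and the reason was not tested.

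The 6 libraries fall into 2 sets by which symbols have counts at all; the labels name no batch. WT 1 and KO 65 (set 1) had 4839 and 5945 counts on the ribosomal RNA gene RNA28SN4, and WT 2, WT 3, KO 16 and KO 66 (set 2) had 0. In all, 14 symbols had at least 50 counts in both set 1 libraries and 0 in set 2, and 44 showed the reverse. The share of ribosomal RNA genes was 0.284% and 0.337% in set 1 and 6.45% to 14.2% in set 2, with the highest share in KO 16. Totals ran from 18314224 to 24358934 counts. A count of 3, the upper limit that a count of 0 allows, came to 0.132 to 0.146 CPM, a limit that covers counting error only. The groups were therefore compared with the set as a term of the model, and each KO library was also compared with the WT of its own set. WT 2 and WT 3 differed little more than sampling noise (chi-square 1.90 per gene), far less than any other pair of libraries (30.8 or more), so KO 16 and KO 66 share a WT level with almost no spread of its own.

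The targeted gene was lower in each KO library. APEX1 (chr14:20455226.0-20457767.0, hg38) measured 167, 254 and 237 CPM in WT 1, WT 2 and WT 3 and 62.9, 60.1 and 108 CPM in KO 65, KO 16 and KO 66. The groups did not overlap, and KO 66 kept the most APEX1 RNA. The difference was -1.50 on the log2 scale (SE 0.23, edgeR adjusted p 0.122), short of the threshold of 0.05. When 1 library at a time was left out, its edgeR adjusted p ran from 0.0113 (without KO 16) to 0.436. Against the WT of their set, KO 65, KO 16 and KO 66 stood at -1.41, -2.03 and -1.19 on the log2 scale. The level of RNA over the whole gene does not show whether the protein was lost.

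APEX1 lies on chromosome 14, and in KO 65 that chromosome stood apart as a whole. Over 401 genes of chromosome 14 with a mean of at least 5 CPM, the median log2 change in KO 65 was -0.58, and 89.3% of the genes were below 0. The median was 0.10 in KO 16 and -0.04 in KO 66. In KO 65 each 10-Mb stretch of the chromosome that held genes had a median between -0.79 and -0.38, and the other chromosomes lay between -0.21 (chromosome 13) and 0.25 (chromosome 19). In KO 16 the other chromosomes ranged from -0.32 (chromosome 19) to 0.40 (chromosome 13), and in KO 66 from -0.19 (chromosome 2) to 0.15 (chromosome 19). In the stretch from 20 to 30 Mb that holds APEX1, the medians over 80 genes were -0.45, -0.33 and -0.01 in KO 65, KO 16 and KO 66. The part of this shift in the APEX1 level of KO 65 was not tested; in KO 16 and KO 66 APEX1 stood at -2.03 and -1.19. Of 11 tested neighbours of APEX1 on the chromosome, none was called. PNP, which breaks down purine nucleosides, gave -0.74, -0.39 and -0.30 in the 3 KO libraries, PARP2, which marks DNA breaks, -0.87, -0.29 and -0.24, and OSGEP, which modifies transfer RNA, -0.73, -0.10 and -0.32.

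**Figure D1:**
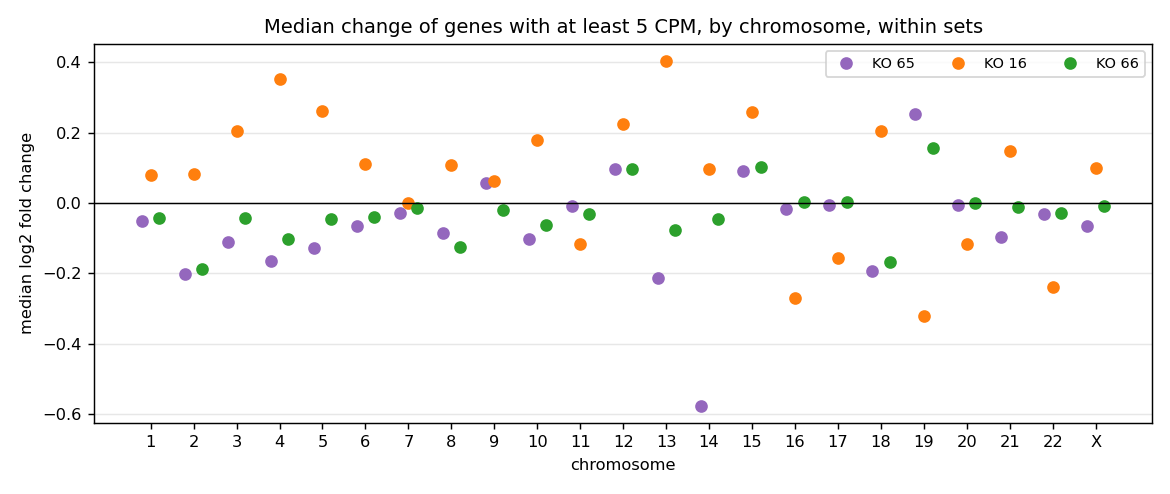
Median log2 change of genes with a mean of at least 5 CPM (vertical axis) on each chromosome (horizontal axis), for KO 65 against WT 1 and for KO 16 and KO 66 against the mean of WT 2 and WT 3. Chromosome 14 in KO 65 lies at -0.58, below every other point of the 3 libraries.

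Across all genes the test with the set term called 1 gene higher in KO, MAGEA6, and 1 gene lower, NTRK3, at a Benjamini-Hochberg adjusted p under 0.05. Each is 0.00633% of the 15806 genes tested. At an unadjusted p under 0.05 there were 1086 higher (6.87%) and 680 lower genes (4.3%). Another criterion, a description with no test, asked for at least a 2-fold change in the same direction in all 3 KO libraries, each against the WT of its set. It found 156 genes higher (0.987%) and 39 lower (0.247%), of which 73 and 15 reached a mean of 5 CPM in the group where they were high. The 3 KO libraries shared a positive sign for 2738 genes (17.3%) and a negative one for 2659 (16.8%), and all KO values lay above all WT values for 966 genes (6.11%) and below them for 727 (4.6%). The number of calls turned on single libraries, KO 16 above all. Without it the same test called 403 genes higher (2.49%) and 315 lower (1.95%) of 16168, among them 91 of the 156 and 22 of the 39 genes above, and at 2-fold or more 184 (1.14%) and 66 (0.408%), although that fit has only 2 residual degrees of freedom. Without WT 1 or without KO 65, when set 1 holds 1 library, edgeR called no gene, with 956 higher and 554 lower at an unadjusted p under 0.05 without WT 1 and 951 and 561 without KO 65. MAGEA6 then had an adjusted p of 0.123 and 0.134 and NTRK3 of 0.284 and 0.298.

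MAGEA6 rose in KO. It is a cancer-testis antigen of the X chromosome (chrX:152766136.0-152769689.0), silent in most adult tissues outside the testis and found again in many tumours, where MAGE proteins act as partners of ubiquitin ligases. It measured 5.19, 4.27 and 4.804 CPM in the WT libraries and 46.2, 62.96 and 64.2 CPM in KO 65, KO 16 and KO 66. The 3 KO values lay close together, and each was far above every WT value. In bulk RNA, a change in the share of cells that express a gene and a change in its RNA per cell cannot be told apart. The rise was 12.03-fold (log2 fold change 3.59, SE 0.21, edgeR adjusted p 0.00849), with 3.13, 3.77 and 3.798 within the sets. The exact permutation p of 3 against 3 libraries was 0.1, the smallest such a design can give.

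MAGEA3 (chrX:152698794.0-152702347.0), its near-identical neighbour, measured 0.825, 0.705 and 0.680 CPM in WT against 5.86, 7.55 and 8.13 CPM in KO (log2 fold change 3.27, SE 0.28, adjusted p 0.0513). Its KO values were also all above its WT values. The longest GENCODE protein-coding transcripts of the 2 genes share 1737 of 1762 aligned bases (98.6%), so reads may have been given to either gene and their split is uncertain. The 250 bases upstream of their start sites are the same in RefSeq GRCh38.p14, with 0 mismatches, and no other gene's window in that table has this sequence. It is shown because 1 sequence stands before both genes, with its 15 CpG dinucleotides (CG on either strand) in capitals:

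MAGEA6 (chrX:152769690-152769939, minus strand): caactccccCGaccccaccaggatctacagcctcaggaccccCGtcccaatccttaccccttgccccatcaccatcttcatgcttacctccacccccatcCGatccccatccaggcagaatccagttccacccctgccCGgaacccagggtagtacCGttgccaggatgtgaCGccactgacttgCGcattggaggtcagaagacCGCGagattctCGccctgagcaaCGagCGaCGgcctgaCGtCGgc

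Of 30 MAGE genes, 8 could be tested, and 4 had an unadjusted p under 0.05, all higher (6.87% of all genes). MAGEA6 and MAGEA3 are both among the 4, and with their uncertain split of reads they are not separate observations. The medians of the 8 were 0.65, -0.002 and 0.49 in KO 65, KO 16 and KO 66, and 4 of the 8 were above 0 in KO 16. MAGEB6 had a log2 fold change of 2.74, but only 1, 4 and 4 counts in WT against 20, 22 and 19 in KO; in set 1 that is an 18.3-fold ratio with a 95% counting interval of 2.93 to 758 (Clopper-Pearson). MAGED1, a broadly expressed member, measured 88.3 ± 3.51 CPM in WT against 123 ± 26.8 CPM in KO (SD, n = 3 each). MAGED2, MAGEE1, MAGEF1 and MAGEH1 lay between -0.22 and 0.30. Among 6 tested cancer-testis antigens of other families, 4 lay above 0 in the fit (8568 of 15806 over all genes), and none was at least 2-fold higher in all 3 KO libraries. Within the sets 6, 1 and 4 of them were above 0 in KO 65, KO 16 and KO 66. XAGE1A and XAGE1B, both counted here, had the same counts in every library, so they are 1 observation.

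NTRK3 fell in KO. It encodes TrkC, the receptor tyrosine kinase for neurotrophin-3, and lies at chr15:87859751.0-88256739.0 on the minus strand. It measured 54.04, 25.5 and 24.4 CPM in WT 1, WT 2 and WT 3 and 2.93, 1.03 and 1.78 CPM in KO 65, KO 16 and KO 66. WT 1 was above WT 2 and WT 3, and the lowest WT value was far above the highest KO value. The fall was 17.9-fold (log2 fold change -4.16, SE 0.25, edgeR adjusted p 0.00849; exact permutation p 0.1), with -4.16, -4.48 and -3.75 within the sets. Without the set term its adjusted p was 0.369. Of 26 tested genes for receptor tyrosine kinases and neurotrophins, NTRK3 was the 1 called. IGF1R, the receptor of insulin-like growth factors, measured 95.3 ± 34.9 CPM in WT against 141 ± 17.6 CPM in KO, and INSR, the insulin receptor, 8.402 ± 2.02 CPM in WT against 12.3 ± 1.15 CPM in KO (SD, n = 3 each; adjusted p 0.320 and 0.346).

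The window upstream of NTRK3 is shown because the study concerns G-quadruplexes and the window holds their sequence pattern. The pattern searched was 4 or more runs of at least 3 G (GGG), parted by 1 to 7 bases of any kind (N), on either strand; runs that belong to a match are in capitals, and a CpG may lie in the parting bases or at the edge of a run:

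NTRK3 (chr15:88256740-88256989, minus strand, RefSeq GRCh38.p14): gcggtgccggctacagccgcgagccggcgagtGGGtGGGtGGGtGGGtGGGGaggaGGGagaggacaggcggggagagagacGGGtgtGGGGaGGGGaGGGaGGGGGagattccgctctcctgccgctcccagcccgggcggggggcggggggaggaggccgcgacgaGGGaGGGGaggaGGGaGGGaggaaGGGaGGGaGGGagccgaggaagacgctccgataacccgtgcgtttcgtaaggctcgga

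**Figure D2:**
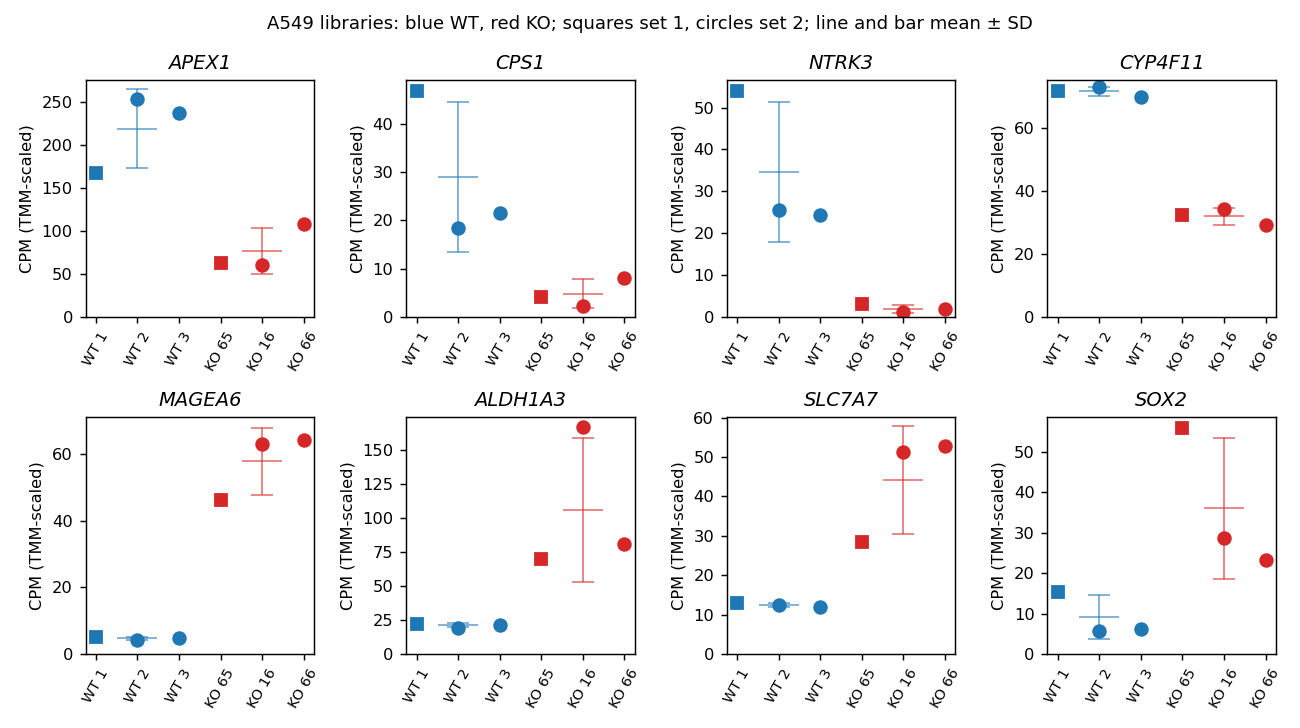
Level in CPM (vertical axes from 0) of 8 genes in each A549 library (horizontal axis); squares are set 1 and circles set 2, and the line with its bar is the mean ± SD of the 3 libraries of a group. In each panel the WT (blue) and KO (red) libraries do not overlap.

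CPS1 (chr2:210477685.0-210679107.0), the enzyme that makes carbamoyl phosphate from ammonia, was lower in each KO library. It measured 46.9, 18.5 and 21.6 CPM in WT 1, WT 2 and WT 3 and 4.04, 2.21 and 8.13 CPM in KO 65, KO 16 and KO 66. The groups did not overlap; KO 66 kept the most, as it did of APEX1. CPS1 passed neither with all libraries (log2 fold change -2.47, SE 0.55, edgeR adjusted p 0.193) nor without KO 16 (adjusted p 0.0736). When 1 library at a time was left out, its edgeR adjusted p ran from 0.0376 to 0.527, so whether it passed turned on single libraries. With another tool, DESeq2 with the set term, its adjusted p was 2.35e-05. Within the sets it was -3.51, -3.13 and -1.29.

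Of 18 genes of the urea cycle and nearby nitrogen flow, 15 were tested and none was called; the study's title names the cycle, so the direction of its genes is not independent evidence. At an unadjusted p under 0.05, 3 were lower and 1 was higher, against 4.3% and 6.87% of all genes. CAD, which uses carbamoyl phosphate to start pyrimidine synthesis, measured 176 ± 9.704 CPM in WT against 119 ± 21.97 CPM in KO, and DHODH, a later step of that pathway, 38.2 ± 9.81 CPM in WT against 26.9 ± 9.32 CPM in KO (SD, n = 3 each; adjusted p 0.242 and 0.429). GLUL, which fixes ammonia as glutamine, gave 1.41, 1.16 and 0.05 in the KO libraries, close to 0 in KO 66. ASS1, which joins citrulline and aspartate, gave 0.75, -0.21 and 1.37, with no common direction. ASL, ARG2, NAGS and SLC25A15 lay between -0.43 and -0.10. The median of the 15 was -0.10, beside 0.04 over all tested genes.

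CYP4F11, a fatty acid hydroxylase (chr19:15912377.0-15934867.0), was lower in each KO library, with little spread in either group. It measured 71.8, 72.9 and 69.9 CPM in WT against 32.4, 34.3 and 29.05 CPM in KO 65, KO 16 and KO 66. Each KO library lay more than 2-fold below any WT library, in both sets alike. The log2 fold change was -1.16 (SE 0.15, edgeR adjusted p 0.0973). With 1 library at a time left out, the edgeR adjusted p ran from 0.0127 (without KO 16) to 0.490. Among 22 tested cytochromes P450 and conjugation enzymes, UGT1A6, which adds glucuronic acid, measured 13.2 ± 0.232 CPM in WT against 6.82 ± 1.23 CPM in KO (SD, n = 3 each); its last exons are shared with other UGT1A genes, so its reads are uncertain. CYP2S1, another P450, measured 49.4 ± 7.701 CPM in WT against 89.5 ± 9.88 CPM in KO. The median of these 22 was -0.02, and the list had no common direction.

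SLC7A7 (chr14:22773222.0-22819791.0), the light chain of a transporter that exchanges cationic and neutral amino acids, was higher in each KO library. It measured 13.01, 12.4 and 11.8 CPM in WT against 28.4, 51.3 and 52.8 CPM in KO 65, KO 16 and KO 66. KO 16 and KO 66 were close together and KO 65 was lower, though above every WT library (log2 fold change 1.78, SE 0.24, edgeR adjusted p 0.103). With 1 library at a time left out, the edgeR adjusted p ran from 0.0292 (without KO 16) to 0.436. SLC7A7 is also on chromosome 14, where the median in KO 65 was -0.58. Of 24 tested amino acid transporters it was the 1 at least 2-fold higher in all KO libraries. SLC1A4, which carries neutral amino acids, measured 28.3 ± 0.651 CPM in WT against 19.1 ± 0.846 CPM in KO, and the arginine transporter SLC7A2 gave 0.63, 0.72 and 0.70 within the sets.

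ALDH1A3 (chr15:100879831.0-100916626.0), which makes retinoic acid from retinal, measured 22.1, 19.4 and 21.7 CPM in WT against 69.8, 167 and 81.1 CPM in KO 65, KO 16 and KO 66. KO 16 was highest, and the lowest KO value was above the highest WT value (log2 fold change 2.28, SE 0.34, edgeR adjusted p 0.122). With 1 library at a time left out, the edgeR adjusted p ran from 0.00680 (without KO 16) to 0.404. The neighbouring non-coding gene LOC101927751 had nearly the same change, 2.26 on the log2 scale, and reads of overlapping genes cannot be told apart unless strand was used in counting. Of 25 tested aldehyde dehydrogenases and retinoid genes no other reached 2-fold in all KO libraries. DHRS3, which reduces retinal, measured 69.1 ± 10.4 CPM in WT against 110.4 ± 39.1 CPM in KO, and RBP4, which carries retinol, 6.99 ± 1.47 CPM in WT against 4.17 ± 2.33 CPM in KO (SD, n = 3 each). The window upstream of ALDH1A3 also holds the quadruplex pattern, as runs of G and, read on the other strand, runs of C, both in capitals:

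ALDH1A3 (chr15:100879581-100879830, plus strand, RefSeq GRCh38.p14): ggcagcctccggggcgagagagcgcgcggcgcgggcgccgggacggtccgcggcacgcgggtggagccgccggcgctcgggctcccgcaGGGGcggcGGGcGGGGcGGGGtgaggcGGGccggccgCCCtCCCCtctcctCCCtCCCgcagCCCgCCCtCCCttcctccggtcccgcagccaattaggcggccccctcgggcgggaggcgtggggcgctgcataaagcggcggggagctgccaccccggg

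The other genes with the largest rises common to the 3 KO libraries did not pass the test over all genes, and only their values are given. They were ranked by the change in the weakest of the 3 KO libraries, among genes with a mean of at least 5 CPM in KO. Transcription factors were among them: SOX2, which maintains stem and squamous cell identity, measured 15.4, 5.77 and 6.16 CPM in WT against 55.95, 28.7 and 23.3 CPM in KO (adjusted p 0.0513). The groups did not overlap, and within the sets the change was nearly even, at 1.86, 2.25 and 1.95. SOX21, a related factor that also represses transcription, gave 2.31, 1.97 and 3.20 (adjusted p 0.142), and the zinc finger gene ZNF28 gave 3.12, 3.05 and 2.73 (adjusted p 0.0846). SOX2 lies within the non-coding gene SOX2-OT and SOX21 beside an antisense gene, and reads of overlapping genes are uncertain.

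Secreted and matrix proteins formed a further part of these genes. SPARC, a matrix-binding glycoprotein, measured 7.53, 0.881 and 2.36 CPM in WT against 32.4, 32.5 and 52.2 CPM in KO. Its 3 KO values were all above the highest WT value, but WT 1 and WT 2 differed widely, and its SE was 0.66 for a log2 fold change of 3.79 (adjusted p 0.139). PXDN, which crosslinks collagen of basement membranes, measured 7.28, 2.995 and 2.402 CPM in WT against 54.7, 15.5 and 9.46 CPM in KO. F5, coagulation factor V, measured 0.388, 0.441 and 0.680 CPM in WT against 42.9, 6.38 and 2.35 CPM in KO, highest by far in KO 65. IGF2, a fetal growth factor, measured 3.11, 0.837 and 0.544 CPM in WT against 19.98, 4.46 and 5.42 CPM in KO (adjusted p 0.0526). The overlapping read-through gene INS-IGF2 had almost the same counts and is no second observation.

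Among the enzymes, BCAT1, which starts the breakdown of branched-chain amino acids, measured 6.02, 1.06 and 0.816 CPM in WT against 38.2, 10.7 and 6.04 CPM in KO (adjusted p 0.0681). WT 1 and KO 65 stood above the libraries of their genotype in set 2, and the groups were just apart. BCHE, butyrylcholinesterase, measured 2.86, 1.67 and 0.680 CPM in WT against 11.1, 3.85 and 4.797 CPM in KO. ADAM28, a membrane metalloprotease, had 0 counts in WT 1 and 299 in KO 65, at least 91.2-fold higher against the limit of 3 counts, and 0.176 and 0.181 CPM in WT 2 and WT 3 against 3.38 and 6.71 CPM in KO 16 and KO 66. A1CF, an RNA-binding cofactor of messenger RNA editing, measured 1.17, 0.176 and 0.227 CPM in WT against 19.1, 4.64 and 1.73 CPM in KO. GASK1B gave 2.24, 2.18 and 2.44 within the sets, but WT 1 was above KO 16 and KO 66, and its exact permutation p was 0.3.

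The 39 lower genes held 15 with a mean of at least 5 CPM in WT. Besides APEX1, CPS1, NTRK3 and CYP4F11, they included the surface glycoprotein CD24, with 533, 460.3 and 452 CPM in WT against 189.6, 126 and 73.7 CPM in KO (log2 fold change -1.96, SE 0.26, adjusted p 0.0989). KO 66 was lowest, and all KO values were more than 2-fold below any WT value; CD24 has near-identical copies in the genome, so its reads are uncertain. KCNMA1, a calcium-activated potassium channel, measured 23.3, 21.7 and 21.3 CPM in WT against 4.09, 5.58 and 8.26 CPM in KO, and the adrenergic receptor gene ADRA1B 14.6, 19.6 and 19.9 CPM in WT against 4.796, 8.59 and 6.13 CPM in KO. In both the groups lay well apart, with adjusted p of 0.118 and 0.111.

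DCLK1, a microtubule-linked kinase, measured 8.06, 6.83 and 6.798 CPM in WT against 0.266, 1.36 and 0.799 CPM in KO. ADAMTS9, a secreted protease of the matrix, had 0 counts in KO 65 against 335 in WT 1, at least 122-fold lower against the limit of 3 counts, and 6.26 and 5.85 CPM in WT 2 and WT 3 against 0.985 and 0.577 CPM in KO 16 and KO 66. TM4SF4, a membrane protein of the transmembrane 4 family, measured 26.9, 76.8 and 72.4 CPM in WT against 4.93, 32.1 and 6.57 CPM in KO. Here KO 16 was above WT 1, although each KO library was lower than the WT of its set, and the exact permutation p was 0.2. MIR100HG, a long non-coding RNA that hosts microRNA genes, gave -1.76, -2.86 and -1.40 within the sets, HPDL, a mitochondrial dioxygenase-like protein, -2.54, -1.48 and -1.12, EVA1A, a membrane protein linked to autophagy, -1.45, -1.09 and -2.89, and ANKRD2, an ankyrin-repeat protein of muscle, -2.64, -1.11 and -1.52. ANKRD2 was lower in WT 1 than in KO 16 and KO 66, and its exact permutation p was 0.3. None of these passed over all genes.

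**Figure D3:**
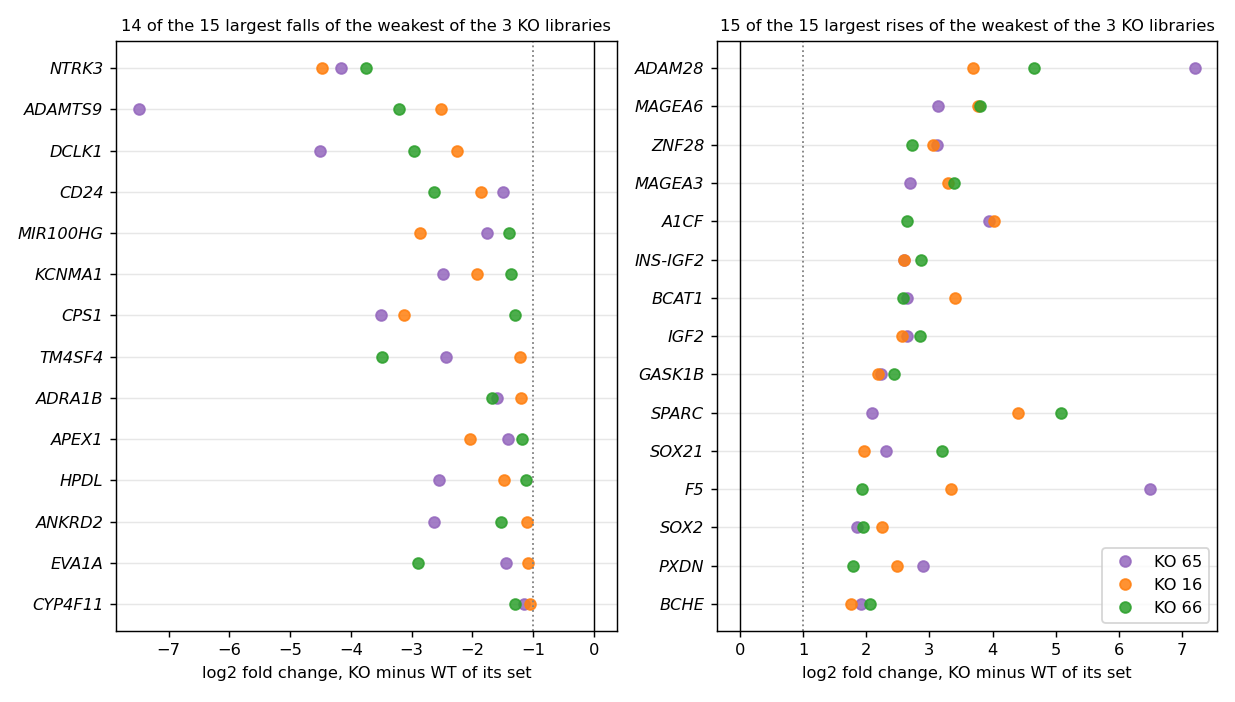
Log2 change of each KO library against the WT of its set (horizontal axis) for 14 lower genes (left) and 15 higher genes (right) ranked by their weakest library; the dotted lines mark 2-fold. All 3 points of each gene lie beyond 2-fold on 1 side, and ADAM28, ADAMTS9 and F5 are farthest from 0 in KO 65.

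Set 1 and set 2 share no library, so the pattern of 1 set could be looked up in the other. In set 2, 219 genes were at least 2-fold higher in both KO 16 and KO 66 than in both WT libraries. In KO 65 against WT 1, 193 of them (88.1%) had the same sign and 120 (54.8%) were at least 2-fold higher, while 4 were at least 2-fold lower. Over all tested genes the 2 shares were 46.8% and 5.54%. The count filter asked for enough counts in at least 3 of the 6 libraries. A gene near 0 in WT thus passed only with reads in each KO library. Likewise, a gene near 0 in KO passed only with reads in each WT library. For such genes the shares here and below are partly fixed by the filter, and those over all genes are no fair measure beside them. Of 78 genes lower in set 2, 61 (78.2%) had the same sign in KO 65 and 32 (41.0%) were at least 2-fold lower, beside 52.9% and 3.8% over all genes; 2 were at least 2-fold higher. Over the whole table the 2 sets had little in common: across all 15806 genes Spearman's rho between the 2 sets was 0.139, and across the 11784 genes with a mean of at least 5 CPM it was 0.0763. These are values across genes of the same libraries, which are not independent replicates. KO 16 had the most genes past 2-fold against its WT, 1657 higher (10.5%) and 694 lower (4.39%), against 775 (4.9%) and 349 (2.21%) for KO 66 and 875 (5.54%) and 600 (3.8%) for KO 65.

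**Figure D4:**
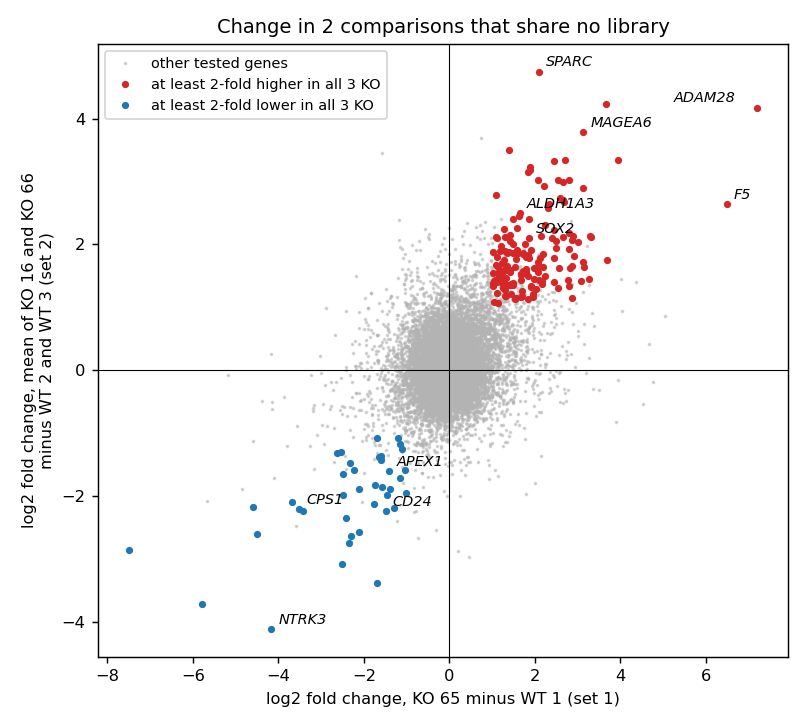
Log2 change of each tested gene in set 1 (KO 65 minus WT 1, horizontal axis) and in set 2 (mean of KO 16 and KO 66 minus mean of WT 2 and WT 3, vertical axis). The 156 genes at least 2-fold higher in all 3 KO libraries (red) and the 39 lower ones (blue) stand at the ends of a cloud whose rank correlation is 0.139.

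CDKN1A, a cell cycle inhibitor, measured 84.9, 105 and 101 CPM in WT against 332, 171 and 240.4 CPM in KO (adjusted p 0.154). The groups did not overlap, and KO 16 was lowest of the KO libraries. GDF15, a stress cytokine, measured 71.1, 54.01 and 53.3 CPM in WT against 301, 110.4 and 227 CPM in KO, again with groups apart and KO 16 lowest (adjusted p 0.122). Over all genes the medians within the sets were -0.03, 0.06 and 0.01 in KO 65, KO 16 and KO 66.

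Genes of cell division did not share 1 direction in the 3 KO libraries. Of 28 mitosis genes 27 were below 0 in the fit and 8 had an unadjusted p under 0.05, all lower (4.3% of all genes, of which 8568 of 15806 were above 0), but their medians within the sets were -0.43, 0.05 and -0.35, and 16 of the 28 were above 0 in KO 16. CENPA, the histone of the centromere, measured 51.7 ± 10.8 CPM in WT against 29.9 ± 7.22 CPM in KO, and CDC20, which activates the anaphase ligase, 176 ± 57.4 CPM in WT against 123 ± 30.5 CPM in KO (SD, n = 3 each; adjusted p 0.166 and 0.284). The 30 replication genes had medians of -0.48, -0.08 and -0.03. Cytosolic ribosomal protein genes were lower mainly in KO 16, with medians of -0.08, -0.62 and -0.19 over 44 genes; the share of ribosomal RNA was also highest in KO 16 (14.2%), and its part in these values was not tested. None of these genes was called.

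No base excision repair gene was called. Of 26 tested genes APEX1 was the 1 at least 2-fold lower in all KO libraries, 8 had the same negative sign in all 3 and 1 the same positive sign (16.8% and 17.3% of all genes). NEIL3, a glycosylase that removes oxidized bases, measured 35.5 ± 8.698 CPM in WT against 20.6 ± 4.15 CPM in KO (SD, n = 3 each; adjusted p 0.300). The paralog APEX2 gave -0.02, -0.33 and 0.22, the polymerase POLB -0.02, -0.41 and 0.09 and the scaffold XRCC1 0.37, -0.50 and -0.02. TDP1 and PARP2 lie on chromosome 14 and were lowest in KO 65, at -1.33 and -0.87. MBD4, which removes thymine from mismatches, was the member with a positive sign in each library, at 0.57, 0.28 and 0.27.

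Epithelial and mesenchymal genes were both on the higher side in the fit, but little so in KO 66. In KO 65, KO 16 and KO 66 the medians were 0.39, 0.61 and 0.13 for epithelial and 0.22, 0.48 and 0.05 for mesenchymal genes. In KO 66, 14 of 24 and 15 of 29 were above 0 (8013 of 15806 over all genes). Of 24 epithelial and junction genes 9 had an unadjusted p under 0.05 and were higher and 1 lower, and of 29 mesenchymal genes 10 and 2, beside 6.87% and 4.3% of all genes. EPCAM, an epithelial adhesion protein, measured 15.1, 28.8 and 24.4 CPM in WT against 36.1, 75.4 and 81.1 CPM in KO (log2 fold change 1.46, SE 0.17, adjusted p 0.0768). Its groups did not overlap. JUP, which links cadherins to the cytoskeleton, measured 215 ± 18.4 CPM in WT against 404 ± 104 CPM in KO, and the desmosomal cadherin DSC2 6.43 ± 2.07 CPM in WT against 14.5 ± 2.25 CPM in KO (SD, n = 3 each). FN1, fibronectin, measured 669, 154 and 152 CPM in WT against 1404, 297 and 238 CPM in KO, where the sets differed more than the genotypes: WT 1 was above KO 16 and KO 66. MMP14, a membrane collagenase, gave 0.74, 3.48 and 3.90, a change mostly of set 2. Fibroblast markers summed to 10.6 to 15.2 CPM in WT and 15.4 to 26.2 CPM in KO, with DCN at 0 counts, and 3 of 10 could be tested: COL1A1 (0.34, 1.12 and 1.49), COL3A1 (0.31, 0.13 and 2.84) and THY1 (1.20, -0.51 and -1.23). Their part in the mesenchymal values was not tested. Leukocyte markers summed to 38.8 to 50.4 CPM, mostly of CD68, in no order of genotype.

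Plasma protein genes, which A549 shares with liver, had a median of 0.43 over 21 tested, with 18 above 0 (8568 of 15806 over all genes), 6 higher at an unadjusted p under 0.05 and 1 lower (6.87% and 4.3% of all genes). In KO 16, 12 of the 21 were above 0, against 17 in KO 65 and 16 in KO 66. The fibrinogen chain FGG measured 54.3 ± 17.1 CPM in WT against 96.96 ± 7.31 CPM in KO (SD, n = 3 each). Within the sets FGG gave 0.27, 1.15 and 1.21, least in KO 65. HPX, which binds heme, met the 2-fold criterion on few reads: 12 counts in KO 65 against 1 in WT 1 is a 10.98-fold ratio with a 95% counting interval of 1.62 to 469. Among 22 tested lung and liver lineage genes, TP63, a regulator of basal and squamous cells, gave 2.45, 1.72 and 0.75 and GATA6 1.16, 1.13 and 0.35, while the surfactant lipid transporter ABCA3 measured 46.2 ± 2.499 CPM in WT against 26.5 ± 0.618 CPM in KO, lower in each KO library.

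Of 29 genes of glycolysis and the pentose phosphate pathway most lay slightly below 0: 5 were above 0 in the fit (8568 of 15806 over all genes), 12 were below 0 in all 3 KO libraries and 1 above (16.8% and 17.3% of all genes), and the medians were -0.14, -0.42 and -0.11. At an unadjusted p under 0.05, 4 were lower and 1 higher, against 4.3% and 6.87% of all genes, and none was called. HK2, which phosphorylates glucose, measured 3.69, 3.61 and 3.22 CPM in WT against 0.711, 1.17 and 0.977 CPM in KO (log2 fold change -1.89, SE 0.31, adjusted p 0.122), the 1 of the 29 past 2-fold in all KO libraries. All KO values were more than 2-fold below any WT value. PFKFB3, which raises glycolytic flux, was higher, at 474 ± 131 CPM in WT against 669.8 ± 40.3 CPM in KO, and ALDOA, an aldolase, lower, at 1479 ± 320.4 CPM in WT against 988 ± 235 CPM in KO (SD, n = 3 each). The 28 cholesterol and fatty acid genes had medians of -0.40, 0.34 and -0.24, opposite in KO 16. SREBF1, their regulator, gave -0.39, -0.996 and -0.60, and FADS2, a desaturase, -0.49, -0.30 and -0.58.

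AP-1 and NF-kB are among the factors that APE1 is known to reduce. Of 15 tested genes in a list of AP-1 subunits that also holds EGR1, 13 were above 0 in the fit (8568 of 15806 over all genes). In all 3 KO libraries 5 were above 0 and 0 below (17.3% and 16.8% of all genes), and the medians were 0.31, 0.37 and 0.13. At an unadjusted p under 0.05, 3 were higher and 0 lower (6.87% and 4.3% of all genes), with FOSB at 0.54, 1.54 and 0.57. NF-kB chemokine and adhesion genes lay highest in KO 65, where all 16 tested were above 0 (7404 of 15806 over all genes), with a median of 0.88 against 0.06 and -0.27 in KO 16 and KO 66. ICAM1, which binds leukocytes, measured 18.01, 0.573 and 1.09 CPM in WT against 59.3, 2.53 and 1.55 CPM in KO, so it differed far more between the sets than between the genotypes. NRF2 target and antioxidant genes had medians of -0.10, -0.42 and -0.10 over 29; HMOX1, which breaks down heme, measured 46.1 ± 0.709 CPM in WT against 93.03 ± 37.2 CPM in KO and AKR1C3, an aldo-keto reductase, 1483 ± 119 CPM in WT against 884 ± 259 CPM in KO (SD, n = 3 each). ATF4 stress genes had a median of -0.01, with ATF3 at 1.71, 1.56 and 0.74 and TRIB3 at -0.78, -0.68 and -0.23. The 26 tested interferon-stimulated genes had a median of 0.31, with 3 higher and 2 lower at an unadjusted p under 0.05, beside 6.87% and 4.3% of all genes.

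**Figure D5:**
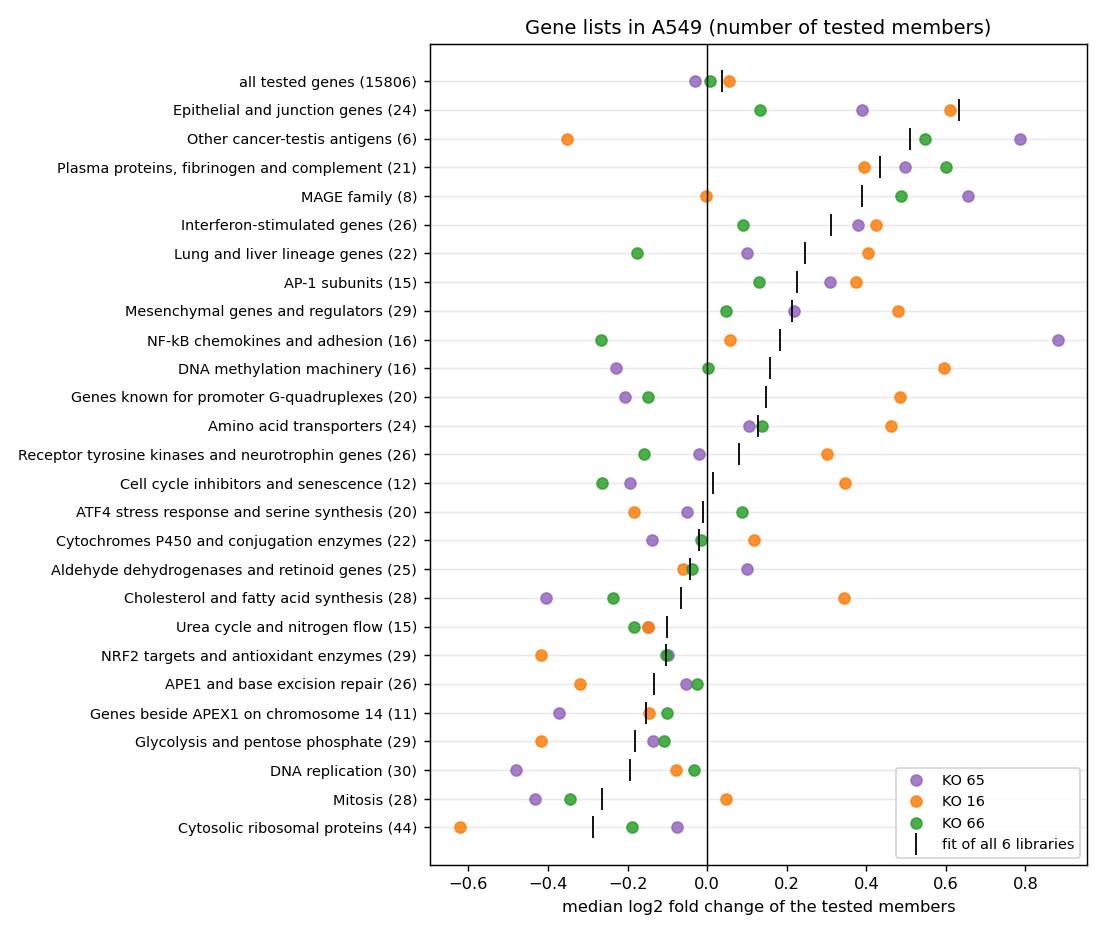
Median log2 change of the tested members of each gene list (vertical axis, with their number) in KO 65, KO 16 and KO 66 within their sets and in the fit of the 6 libraries (black bar). For plasma proteins the 3 libraries lie together at 0.50, 0.39 and 0.60, while for lists such as NF-kB chemokines or cholesterol synthesis they lie on both sides of 0.

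The sequence pattern of G-quadruplexes was about as frequent before the genes that differed 2-fold as before all tested genes. Upstream windows of 250 bases were found for 11714 of the tested genes, and 38.8% of these genes had the pattern in at least 1 window. The share was 41 of 107 (38.3%) for the genes higher in all 3 KO libraries and 10 of 28 (35.7%) for the lower ones; over all 35116 windows of the table it was 23.5%. The 3 CPS1 windows and the APEX1 window hold no match. Genes listed for known promoter G-quadruplexes had a median of 0.15 over 20 tested; MYC measured 179, 178 and 174 CPM in WT against 127, 122 and 122 CPM in KO (adjusted p 0.240), with little spread in either group. Windows of the genes 2-fold apart held fewer CpG dinucleotides, with a median of 10 for the higher and 8.5 for the lower genes against 20 over all tested genes with a window. These groups of genes were not matched for level. Of the 156 and 39 genes, 73 and 15 reached a mean of 5 CPM in the group where they were high. Of all 15806 tested genes, 11784 had a mean of at least 5 CPM over the libraries. The part of the level in the CpG counts was not tested. A match of letters is a description and shows neither a folded structure nor binding.

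Several named genes gave no difference between the lines that passed, among them APEX1, CPS1 and ALDH1A3. For APEX1, which was -1.48 in H1944, the A549 change minus the H1944 change was -0.04 (adjusted p 0.957). For CPS1, which was -1.71 in H1944, this difference was -0.78 (adjusted p 0.438). ALDH1A3 rose in both lines, by 2.28 in A549 and 1.90 in H1944 (difference 0.35, adjusted p 0.697). Its mean in H1944 went only from 0.736 to 2.75 CPM, so the rise there rests on low levels. For MAGEA6 the rise was larger in A549 than the 2.23 of H1944 (difference 1.33, adjusted p 0.00607). NTRK3 was too low in H1944 for a test of that line alone, and in the fit of both lines its difference was -1.80 (adjusted p 0.831). The genes that were 2-fold higher in each A549 KO library had no common direction in H1944: of 124 tested there, 48 were called higher (38.7%) and 52 lower (41.9%), while 33.9% and 33.8% of all genes tested in both lines were, and 33.2% and 33.9% of the 16626 genes tested in H1944. Of the 34 lower genes tested there, 13 were called higher and 14 lower. The difference between lines itself was called for 1520 genes higher (8.6%) and 1239 lower (7.01%) of 17677. Among the 156 genes it was higher for 80 and lower for 8, and among the 39 it was lower for 21 and higher for 3; the A549 libraries that chose these genes are part of that difference, so these counts are a description.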

How the data were processed

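Poly(A) messenger RNA of A549 WT and APEX1 KO cells was sequenced as paired-end reads. Per the submitters' processing notes, the authors used Trim Galore 0.5.0, HISAT2 2.1.0, hg38, featureCounts 1.6.4 and DESeq2; strand, annotation and the handling of reads with several alignments are not given in the sources used here. The authors deposited raw, unnormalized counts for each gene symbol. Every per-sample column was used. The genes and the 31 gene lists were chosen with earlier results of these data known.

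Genes were kept by filterByExpr (minimum count 10), scaled by TMM and tested in edgeR 4.0.16 (R 4.3.3; quasi-likelihood, robust) with genotype and set as terms; adjusted p-values are its Benjamini-Hochberg values over all tested genes, with a threshold of 0.05. SE is the size of the log2 fold change divided by the root of the test's F. Changes within sets are differences of log2 CPM (prior count 2), with no test. The difference between lines came from 1 edgeR fit of 10 libraries with the set as a term within A549. Exact permutation tests are 2-sided. Ratios against 1 count have 95% Clopper-Pearson intervals; these and the limit of 3 counts cover counting error only, because reads that carry no molecular identifier need not come from independent molecules. Genes named are APEX1 and 6 other markers, the 15 largest rises and falls of the weakest KO library with a mean of at least 5 CPM, called genes, and up to 4 members of a list with the smallest adjusted p or 2-fold apart in all KO libraries; further list members, LOC101927751, GDF15, PTPRD and GABRA3 are outside this rule and were chosen after their values were seen. Some items that the rule names are not reported here. Coordinates and upstream windows are from RefSeq GRCh38.p14, the build hg38, and 15231 tested symbols matched. The MAGEA3 and MAGEA6 transcripts are from GENCODE. The fits were tested on simulated data. Alternatives were other scalings, filters, tools, sets and leaving out each library; some lookups between sets were added after seeing the data.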

Additional observations from a re-analysis of the deposited data

Results flagged for a closer look

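For 21 of 31 genes, namely the 7 markers, the called genes and those among the largest rises and falls, the change in A549 differed from that in H1944 by the test of the difference itself (A549 log2 fold change minus H1944 log2 fold change, edgeR, adjusted over 17677 genes); the difference was called for 8.6% and 7.01% of all genes on the higher and lower side. The named genes were partly chosen for their A549 change, so the size of these differences is a description.

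Some genes were higher in KO in A549 and lower in H1944. SOX2, which maintains stem and squamous identity, differed by 7.82 (adjusted p 0.000153), with 2.03 in A549 and -5.84 in H1944. The amino acid transporter gene SLC7A7 differed by 3.42 (0.000153), with -1.66 in H1944. Likewise A1CF, the RNA editing cofactor, differed by 7.21 (0.000598), BCHE, butyrylcholinesterase, by 5.66 (0.000102), and F5, coagulation factor V, by 6.01 (0.00484), with -3.23, -3.78 and -1.63 in H1944. ZNF28 differed by 3.39 (0.000467), with a small -0.26 in H1944. SOX2 and A1CF were low in H1944, at 2.23 and 1.005 CPM in WT and 0.0335 and 0.102 CPM in KO, so their changes there rest on few counts.

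Other genes were higher in KO in both lines but by unequal amounts. The antigen genes MAGEA6 and MAGEA3 differed by 1.33 (0.00607) and 2.87 (0.000153), and BCAT1 by 1.92 (0.00533), all larger in A549. Reads of MAGEA6 and MAGEA3 may have been given to either gene, so their values are not separate results. The matrix gene SPARC was higher by 3.79 in A549 and by 9.71 in H1944, a difference of -6.00 (0.00631), and GASK1B differed by -1.98 (0.0183). SPARC and GASK1B stood at only 0.278 and 0.368 CPM in H1944 WT, so the size of these differences rests on few WT counts. ADAM28 and PXDN were too low in H1944 for a fit of that line alone; in the fit of both lines they differed by 8.10 (0.00795) and 8.12 (0.00541), values that depend on the prior for very low counts.

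Among the genes that were lower in A549, several were higher in H1944. CD24, the surface glycoprotein, differed by -6.16 (7.7e-05), from 482 to 129.7 CPM in A549 and from 5.57 to 101 CPM in H1944. DCLK1, the microtubule-linked kinase, differed by -7.14 (0.000153), the potassium channel gene KCNMA1 by -5.16 (0.000597), EVA1A by -4.97 (0.0161) and the protease gene ADAMTS9 by -4.40 (0.0164), with 3.89, 3.23, 3.27 and 0.33 in H1944. EVA1A and KCNMA1 stayed under 3 CPM in H1944. ANKRD2 differed by -1.84 (0.0170) and ADRA1B by -1.59 (0.00522), with H1944 values near 0 (0.16 and 0.08). CYP4F11 was lower in both lines, by more in A549 (difference -0.79, adjusted p 0.0119; -0.40 in H1944). Without the set term the differences of ANKRD2, BCAT1, GASK1B, PXDN and ZNF28 did not pass.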

How the results depend on the processing

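Of the 465 refits of 31 named genes none changed direction. The counts of genes called in A549, 1 higher and 1 lower, moved with the tool and filter: without the set term there were 1 and 0, with DESeq2 1.42.0 290 and 146, with limma-voom 3.58.1 3 and 2, and with no low-count filter 38 and 10. The higher count was 3 with RLE scaling, 5 with library size only and 5 without ribosomal RNA genes, and the lower count stayed at 1 in these. In set 2 only, 0 genes were called by edgeR in each direction, with 774 higher and 777 lower at an unadjusted p under 0.05. Leaving out 1 library at a time gave 0 to 403 higher and 0 to 315 lower genes: 0 and 0 without WT 1 or without KO 65, 3 and 2 without KO 66, 1 and 1 without WT 2 or WT 3, and 403 and 315 without KO 16; at an unadjusted p under 0.05 edgeR gave 956 and 554 without WT 1 and 951 and 561 without KO 65. MAGEA6 was called in each refit of all 6 libraries and NTRK3 in each but the one without the set term (adjusted p 0.369); in set 2 only they had adjusted p of 0.128 and 0.286. Of the 31 named genes, 26 more were called without KO 16 and 28 more with DESeq2. The cause was not tested. Genes 2-fold apart in all 3 KO libraries, 156 and 39, were 428 and 148 at 1.5-fold and, with 2 of the 3 KO libraries, 288 to 332 and 87 to 116; fewer libraries have to agree there. Prior count and scaling gave 121 to 174 and 30 to 44. In the lookup between sets, added after seeing the data, library size only gave 88.1% and 79.7% with the same sign. Prior count 5 gave 91.3% and 84.4%, and the count filter bears on these shares as said above. The difference between lines gave 725 and 503 genes without the set term, and DESeq2 2007 and 1921. No paired analysis was possible because the KO column names of A549 carry no replicate number; in H1944 the replicate block gave 5568 and 5660 called genes against 5522 and 5642 without it, and equally numbered libraries hardly deviated together (correlation 0.0128 across genes), so they share only a number. Low depth limits genes under about 3 counts per library.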

Other observations

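Genes of the DNA methylation machinery, 16 tested, had medians of -0.23, 0.60 and 0.00 in KO 65, KO 16 and KO 66, and none was called. MBD2, which reads methylated CpG, measured 72.2, 84.8 and 86.2 CPM in WT against 54.6, 54.7 and 52.8 CPM in KO, lower in every KO library (adjusted p 0.242). DNMT3A, which sets new methylation, measured 16.4 ± 1.33 CPM in WT against 24.1 ± 2.48 CPM in KO (SD, n = 3 each; adjusted p 0.300). Of 12 tested cell cycle inhibitors and senescence genes 1 was higher and 2 were lower at an unadjusted p under 0.05 (6.87% and 4.3% of all genes), with CDKN2C, an inhibitor of the kinases CDK4 and CDK6, at -0.32, -0.45 and -0.78 and HMGB2, a chromatin protein, at -0.30, -0.32 and -0.62.

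PTPRD, a receptor tyrosine phosphatase, was the 1 tested gene with 0 counts in every library of a group. It had 102, 29 and 21 counts in WT 1, WT 2 and WT 3 and 0 in each KO library (edgeR adjusted p 0.103). GABRA3, a subunit of the GABA-A receptor on the X chromosome, measured 0.340, 0.0881 and 0.227 CPM in WT and 5.37, 3.94 and 4.84 CPM in KO (adjusted p 0.0526), few counts in WT but no overlap. Both fell outside the rule for named genes because their means were under 5 CPM.

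Genes 2-fold higher in all 3 KO libraries were spread over the chromosomes, from 0 of 152 tested genes on chromosome 21 to 8 of 257 (3.11%) on chromosome 13, beside 0.987% over all genes. Of 1186 tested long non-coding RNAs 19 were among the 156 (1.602%) and 6 among the 39 (0.506%), and of 13235 protein-coding genes 128 (0.967%) and 30 (0.227%), beside 0.987% and 0.247% over all genes.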
